A study of Mus musculus with 24 samples.

Results

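The gluconeogenesis enzymes described here were 10 genes whose products make glucose from lactate, amino acids and glycerol or bring the substrates in: Pck1, Pck2, G6pc, G6pc3, Slc37a4, Fbp1, Pcx, Gpd1, Gk and Aqp9. They were found by the gene name printed on the array, and 9 of the 10 had a probe of exactly that name, among 37074 gene names on the array. No probe was named Gk. This array lists that gene under its older symbol Gyk, which RefSeq gives as a synonym, and its 3 probes are described separately and not counted among the 9. Of 14 probes with a member's exact name, 13 were tested, and these 13 were well above background on all 24 arrays. The remaining Pck2 probe was well above background on 1 array.

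Liver RNA came from male C57Bl6J mice, each on its own array, bred to the third generation in 2 lineages. The question was what a diet that causes obesity does to the liver, and whether omega 3 fatty acids in the food of a lineage change that. The reference group (STD_Cont, 9 mice) came from the control lineage, supplemented with high-oleic sunflower oil, and was fed a low-fat diet. The HFoleic group (HFD_Cont, 8 mice) came from the same lineage and was fed a diet high in fat and sucrose. The HFepa group (HFD_O3, 7 mice) came from the n-3PUFA lineage, whose food held fish oil with much EPA (eicosapentaenoic acid, an omega 3 fatty acid), and was fed the same high-fat diet. The labels give no age, and the mice were killed while fasting. No mice of the fish oil lineage on the low-fat diet are among these arrays, so in HFepa against reference the diet and the lineage cannot be told apart.

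Gluconeogenesis runs in the liver during fasting and releases glucose to the blood. Most of its steps are those of glycolysis run backwards, and a few irreversible steps need enzymes of their own: pyruvate carboxylase, phosphoenolpyruvate carboxykinase, fructose-1,6-bisphosphatase and glucose-6-phosphatase. Glucagon, acting through cyclic AMP, and glucocorticoids raise transcription of Pck1 and G6pc, and insulin lowers it. Glycerol from fat stores enters through aquaporin 9, is phosphorylated by glycerol kinase and joins the pathway as dihydroxyacetone phosphate.

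Promoter sequence is shown for Pck1, G6pc and Gk, the genes with the clearest differences between groups, because control of the first 2 is known to lie largely in their promoters. Each run is the 250 bases before the transcription start in RefSeq (build GRCm38.p6), read 5′ to 3′ on the gene's strand, at chr2:173152823-173153072 (plus strand) for Pck1, chr11:101367466-101367715 (plus) for G6pc and chrX:85776820-85777069 (minus) for Gk. Capitals mark exact matches, on either strand, to the cyclic AMP response element core TGACG, the insulin response sequence core CAAAACA, the FOXO core GTAAACA, the TATA box TATAAA and the CCAAT box.
Pck1: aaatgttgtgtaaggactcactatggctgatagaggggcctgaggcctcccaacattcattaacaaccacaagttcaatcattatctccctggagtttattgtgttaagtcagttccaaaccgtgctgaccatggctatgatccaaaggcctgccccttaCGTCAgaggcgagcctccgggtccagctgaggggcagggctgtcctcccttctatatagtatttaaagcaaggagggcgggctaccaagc
G6pc: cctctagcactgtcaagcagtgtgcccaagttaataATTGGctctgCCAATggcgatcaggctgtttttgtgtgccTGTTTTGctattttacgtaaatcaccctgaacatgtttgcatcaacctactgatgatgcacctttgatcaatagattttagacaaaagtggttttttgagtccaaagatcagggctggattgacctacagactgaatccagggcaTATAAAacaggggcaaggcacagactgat
Gk: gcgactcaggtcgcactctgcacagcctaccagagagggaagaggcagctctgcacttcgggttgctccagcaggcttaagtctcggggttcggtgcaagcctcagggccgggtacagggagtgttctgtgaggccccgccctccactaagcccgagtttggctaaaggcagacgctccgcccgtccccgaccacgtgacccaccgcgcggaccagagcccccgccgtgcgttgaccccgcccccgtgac
The Pck1 window held 1 match, the cyclic AMP core read on the minus strand, 90 to 86 bases before the start. The G6pc window held 4 matches: the TATA box 29 to 24 bases before the start, the insulin response core on the minus strand at 174 to 168, and CCAAT at 204 to 200 and, on the minus strand, at 214 to 210. No match lay in the Gk window. Such matches are common: among 32851 promoter windows of the same length, 17.8% held TGACG, 5.56% CAAAACA, 3.17% GTAAACA, 12.4% TATAAA and 33.8% CCAAT. Among the 9 member genes with a promoter in the table (Gpd1 had no entry), TGACG lay in 2 (Pck1 and Slc37a4), CAAAACA in 2 (G6pc and Pck2), TATAAA in 2 (G6pc and Slc37a4), CCAAT in 4 and GTAAACA in 0. These gene counts cover every listed start of a gene (3 for Slc37a4, 2 each for Pcx and Aqp9). The percentages are per single window, so counts and percentages are not measured alike. A match is a description of letters and says nothing of binding in these livers.

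Values are log2 signals of the brightest tested probe of a gene after quantile normalization between arrays, and a difference of 1 is a 2-fold change. Changes were tested with limma on all 24 arrays, two-sided, and adjusted p values are by Benjamini-Hochberg over all 30003 tested probes within a comparison, with a gene called below 0.05. The arrays lay on 3 slides, each holding all 3 groups. Between 28804 and 34432 of 56605 probes per array were well above background, and any 2 arrays correlated at 0.973 to 0.996 across probes. All 5 hepatocyte markers (Alb, Ttr, Apoa1, Tat, Serpina1c) were measured, and their summed log2 signal was 19.72 to 19.81 in reference, 19.74 to 19.83 in HFoleic and 19.74 to 19.81 in HFepa mice. Of the 5, Tat, a tyrosine aminotransferase with a small part in that sum, was called lower in HFoleic, at -0.63 ± 0.14 (SE, limma adjusted p = 0.00858), and the other 4 were not called.

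In HFoleic livers, 2 of the 9 enzymes were called, both lower than in reference: Pck1 and G6pc, whose products make phosphoenolpyruvate from oxaloacetate and release free glucose in the last step. In the whole comparison 7.23% of tested probes were called, with 4.05% higher and 3.19% lower. The median change of the 9 genes was -0.16, against 0.00 over all probes, with 6 of 9 estimates below 0. In HFepa livers 0 of 9 were called against reference, where the background was 0.393% of probes. There 4 of 9 had an unadjusted p below 0.05 in limma, as did 4040 of all 30003 probes. Between the 2 high-fat groups 0 of 9 were called, as were 0% of all probes. Unadjusted, 1 of 9 was below 0.05 in limma, as were 2910 of all 30003 probes. The 2 comparisons with reference share the 9 reference mice.

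**Figure D1:**
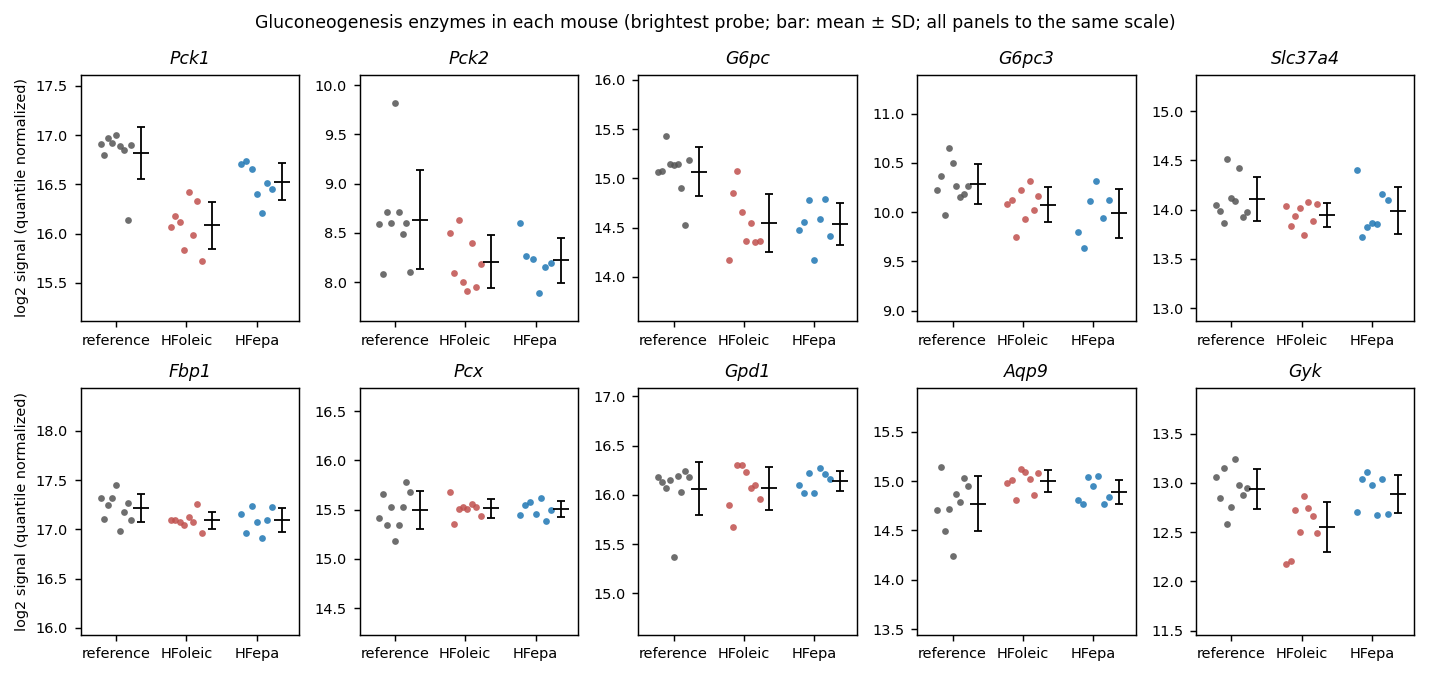
Log2 signal of the brightest probe of each enzyme in each mouse (one point per mouse, groups along the horizontal axis, and the bar beside each group is its mean ± SD). Pck1 separates reference from HFoleic except for 1 low reference mouse at 16.14, G6pc is lower in both high-fat groups, and Pcx, Gpd1 and Fbp1 sit at similar levels in the 3 groups.

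Pck1 encodes the cytosolic phosphoenolpyruvate carboxykinase, which turns oxaloacetate into phosphoenolpyruvate. Its probe lies at chr2:172984307-172984366 (mm9, plus strand). The log2 signal in reference mice had a lowest value of 16.14, a median of 16.90 and a highest value of 17.00. HFoleic mice ran from 15.72 through a median of 16.09 to 16.43, and HFepa mice from 16.21 through 16.51 to 16.73. HFoleic values were thus low, HFepa values lay between the other two groups, and reference values were high apart from 1 mouse. All 8 HFoleic mice lay below the reference mean and 5 of 8 below every reference mouse. The groups overlapped because of that reference mouse, replicate 8, at 16.14, with the next lowest reference mouse at 16.80.

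The change of Pck1 in HFoleic was -0.74 ± 0.11 (SE, 95% interval -0.96 to -0.51, limma adjusted p = 0.000602), a signal 0.60 times that of reference. Within the 3 slides the difference was -0.76, -0.83 and -0.62. In HFepa the change against reference was -0.29 ± 0.11 (SE) with an adjusted p of 0.246 in limma, and all 7 mice lay below the reference mean. Without reference replicate 8 the HFepa change was -0.38 and limma called it (adjusted p = 0.0342). Between the high-fat groups Pck1 was 0.44 ± 0.12 (SE) higher in HFepa, a 1.36-fold signal, with a 95% interval of 0.20 to 0.68. The unadjusted p was 0.000926 and the limma adjusted p was 0.201, so this difference was not called over all probes, although all 7 HFepa mice lay above the HFoleic mean and 5 of 7 above every HFoleic mouse. The same difference within the 3 slides was 0.46, 0.48 and 0.38. The order of levels was therefore reference, HFepa, HFoleic, with neither of the 2 neighbouring steps past the adjusted threshold. In the paper's RT-qPCR, Pck1 was significantly lower than reference in both high-fat groups. Its difference between the high-fat groups was not significant there. In bulk liver, the signal of 1 gene alone cannot tell less RNA per cell from fewer cells of a type. Of the hepatocyte markers, Alb, Serpina1c, Apoa1 and Ttr changed by -0.10 to 0.12 in HFoleic, and Tat was called lower at -0.63. Pcx changed by 0.02, against -0.74 for Pck1. The part of cell numbers in the Pck1 change was not tested.

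Pck2, the mitochondrial form of the same enzyme, was measured at low signal. Reference mice ran from 8.08 through a median of 8.60 to 9.82, HFoleic mice from 7.91 through 8.14 to 8.63 and HFepa mice from 7.89 through 8.21 to 8.60, with 1 HFepa array left out because its spot was marked as an outlier. The high reference value belonged to replicate 5. The change was -0.42 ± 0.17 (SE) in HFoleic (limma adjusted p = 0.143) and -0.41 ± 0.19 in HFepa (adjusted p = 0.330, n = 6 HFepa mice). Without reference replicate 5 these were -0.28 and -0.26.

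G6pc encodes the catalytic subunit of glucose-6-phosphatase, which releases free glucose in the last step. Its probe lies at chr11:101238947-101239006 (mm9, plus strand). Reference mice ran from 14.52 through a median of 15.14 to 15.43. HFoleic mice ran from 14.17 through 14.46 to 15.07 and HFepa mice from 14.18 through 14.56 to 14.79. Both high-fat groups were low and covered nearly the same range, and each overlapped the reference range.

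In HFoleic, G6pc changed by -0.52 ± 0.12 (SE, 95% interval -0.77 to -0.27, limma adjusted p = 0.00870), or 69.7% of the reference signal, with 7 of 8 mice below the reference mean. In HFepa the change was -0.53 ± 0.12 (SE, interval -0.78 to -0.27) with all 7 mice below the reference mean, and the adjusted p of 0.0543 in limma fell just outside the threshold. It was called under 3 of 12 processing alternatives and when 1 of 3 single mice was left out: reference replicate 8 (-0.60, limma adjusted p = 0.0117), HFoleic replicate 3 (-0.53, adjusted p = 0.0410) or HFepa replicate 3 (-0.57, adjusted p = 0.0365). Between the high-fat groups the difference was -0.01, with a 95% interval of -0.27 to 0.26. Within the 3 slides the HFoleic difference from reference was -0.34, -0.76 and -0.52, and the HFepa difference was -0.25, -0.59 and -0.74. Pck1 and G6pc therefore gave different patterns: the HFepa minus HFoleic estimate was 0.44 for Pck1 and -0.01 for G6pc, and whether these 2 estimates differ from each other was not tested.

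G6pc3, the widely expressed form of the glucose-6-phosphatase subunit, changed by -0.21 in HFoleic (limma adjusted p = 0.220) and by -0.30 in HFepa (adjusted p = 0.199, n = 6 HFepa mice because 1 spot was marked as an outlier). Its reference mice ran from 9.97 to 10.65, its HFoleic mice from 9.74 to 10.32 and its HFepa mice from 9.64 to 10.32, so the ranges largely overlapped. A second, dimmer probe of G6pc3 changed by 0.00 and -0.19. Slc37a4, the transporter that carries glucose-6-phosphate into the endoplasmic reticulum to the phosphatase, changed by -0.16 in HFoleic and -0.12 in HFepa on its brightest probe. Its second probe, to another transcript, was dim, with a mean signal of 6.41 against 14.02. That probe changed by 0.02 and 0.21, so the probes disagreed in direction. None of these changes was called in limma.

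**Figure D2:**
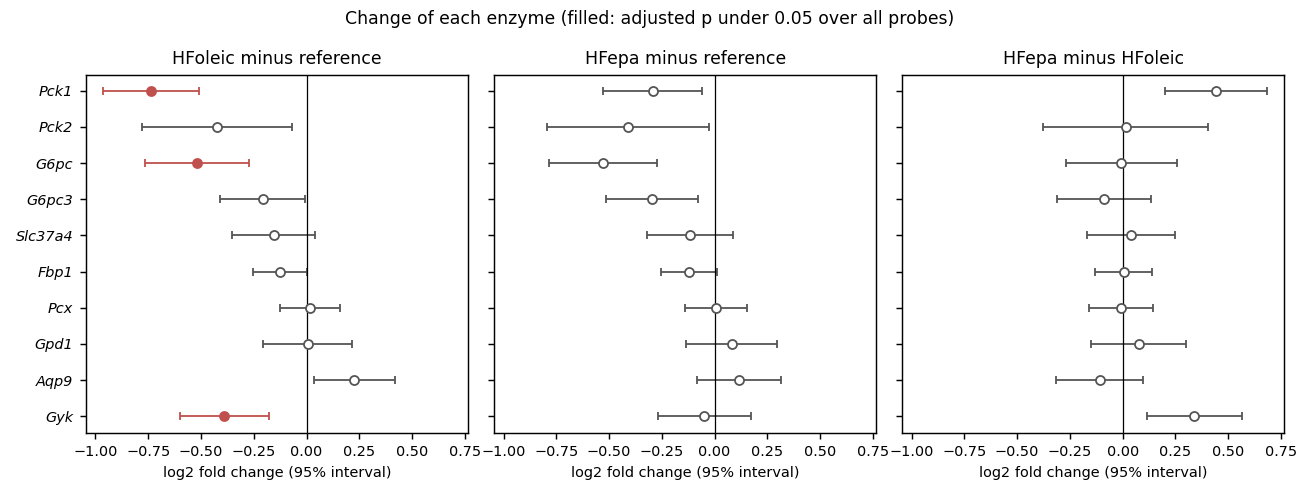
Log2 fold change of each enzyme (points) with its 95% interval (bars) in the 3 comparisons named above the panels, where filled points have an adjusted p below 0.05 over all tested probes. Pck1 at -0.74, G6pc at -0.52 and Gyk at -0.39 are filled in HFoleic minus reference, and no point is filled in the other panels.

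The remaining irreversible steps differed less. Fbp1, the fructose-1,6-bisphosphatase of liver, changed by -0.13 ± 0.06 (SE) in HFoleic and -0.12 ± 0.06 in HFepa (limma adjusted p = 0.237 and 0.416), with 95% intervals of -0.25 to 0.00 and -0.26 to 0.01. Pcx, the biotin-dependent pyruvate carboxylase of mitochondria, changed by 0.02 (interval -0.13 to 0.16) and 0.01 (-0.14 to 0.15). The Pcx signal ran from 15.19 to 15.78 in reference, 15.36 to 15.68 in HFoleic and 15.39 to 15.62 in HFepa mice. Of the pathway's own irreversible steps, the Pck1 and G6pc probes were called lower in HFoleic and the Fbp1 and Pcx probes were not.

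The glycerol branch was mixed. Aqp9, the channel through which hepatocytes take up glycerol, ran from 14.24 through a median of 14.79 to 15.15 in reference, 14.80 through 15.02 to 15.12 in HFoleic and 14.77 through 14.84 to 15.05 in HFepa mice. All 8 HFoleic mice lay above the reference mean, with a change of 0.23 ± 0.09 (SE, limma adjusted p = 0.152), and the HFepa change was 0.12 (adjusted p = 0.661). A second, dimmer probe of Aqp9 changed by 0.04 in HFoleic and -0.09 in HFepa, so the probes disagreed in direction in HFepa. Gpd1, the cytosolic glycerol-3-phosphate dehydrogenase, changed by 0.01 in HFoleic and 0.08 in HFepa.

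Gyk, the array's name for glycerol kinase, was lower in HFoleic on all 3 of its probes. The brightest ran from 12.58 through a median of 12.95 to 13.24 in reference, 12.18 through 12.59 to 12.87 in HFoleic and 12.67 through 12.98 to 13.11 in HFepa mice. On this probe HFoleic was the low group, while reference and HFepa covered similar ranges. The change in HFoleic was -0.39 ± 0.10 (SE, 95% interval -0.60 to -0.18, limma adjusted p = 0.0204), or 76.4% of the reference signal, with all 8 mice below the reference mean. By the methods' t-test the same change had an adjusted p of 0.0517 and was not called. The other 2 probes changed by -0.37 and -0.74 (limma adjusted p = 0.0275 and 0.0107), and the probe at -0.74 was dim, with a mean signal of 7.35. In HFepa the brightest probe changed by -0.05 ± 0.11 (SE, interval -0.27 to 0.17). The other 2 probes changed by -0.02 and, on the dim probe, by -0.28 ± 0.18 (SE, limma adjusted p = 0.546). Between the high-fat groups Gyk was 0.34 ± 0.11 (SE, interval 0.11 to 0.57) higher in HFepa, above the HFoleic mean in all 7 mice, with a limma adjusted p of 0.291. That difference varied between slides, at 0.70, 0.12 and 0.19. Like Pck1, Gyk thus had its lowest level in HFoleic, without a called difference between the high-fat groups.

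**Figure D3:**
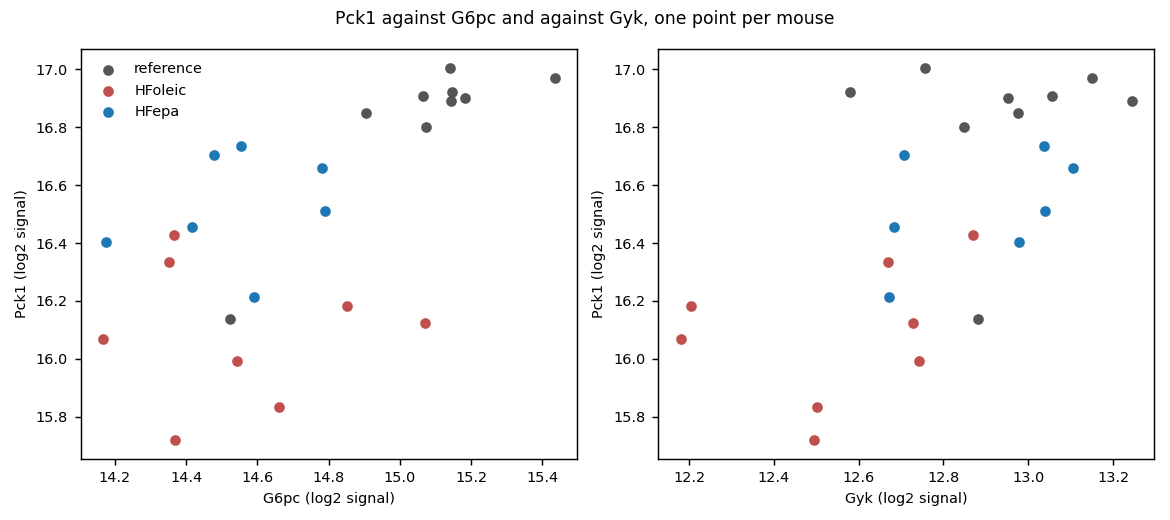
Log2 signal of Pck1 (vertical axis) against G6pc (left) and Gyk (right), one point per mouse, coloured by group. HFepa mice lie between 16.21 and 16.73 in Pck1, while their G6pc lies between 14.18 and 14.79, inside the HFoleic range.

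The other genes of the pathway were grouped by step. Of 6 genes for the steps shared with glycolysis (such as Tpi1 and Eno1), 0 were called, with a median change of -0.05. Of 7 genes of the oxaloacetate shuttle, 1 was called lower: Got1, the cytosolic aspartate aminotransferase, at -1.56 ± 0.22 (SE, limma adjusted p = 0.000430), while its mitochondrial counterpart Got2 was at -0.03 (adjusted p = 0.845). Of 8 genes of substrate entry, 2 were called lower and 1 higher. Sds, which makes pyruvate from serine, changed by -0.96, Gpt2, a mitochondrial alanine aminotransferase, by -0.70, and Mpc1, a subunit of the mitochondrial pyruvate carrier, by 0.33, while Gpt, another alanine aminotransferase, was at -0.17 (adjusted p = 0.431). Of 6 genes listed for opposing glycolytic steps and the gating of pyruvate use, 1 was called, Gckr, higher at 0.27. It encodes a regulatory protein and not an enzyme of either route. Each of these lists is small, and its count is read against 7.23% of all probes.

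Of 19 regulators of the pathway, 2 were called lower and 2 higher in HFoleic. Irs2, an adaptor of the insulin receptor, changed by -1.16 ± 0.20 (SE, limma adjusted p = 0.00169), and Ppargc1a, a coactivator induced by fasting, by -0.54 ± 0.15 (adjusted p = 0.0296). In the paper's RT-qPCR, another measure of RNA, the fall of Irs2 in HFoleic was significant and Ppargc1a did not differ significantly. Nr3c1, the glucocorticoid receptor, changed by 0.36, and Gcgr, the glucagon receptor, by 0.21. Their median change was 0.07. Of the 7 genes of the periportal zone, where gluconeogenesis is most active, 2 were called lower, Cps1 at -0.89 and Gls2 at -0.48. In that list 6 of 7 estimates were below 0, and Cyp2f2 was at 0.10. Of the 7 of the pericentral zone, 2 were called higher, Lect2 at 0.66 and Rgn at 0.49, and 1 of 7 estimates was below 0, Oat at -0.24. A shift between zones was not tested. Of 6 paralogues used mainly in other tissues, 3 were measured and 0 called, and Fbp2, G6pc2 and Gk2 were not well above background. The counts of these small lists too are read against 7.23% of all probes.

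In HFepa against reference, Got1 was the one gene of these 7 lists and the paralogues that was called, at -1.23 ± 0.23 (SE, limma adjusted p = 0.0245). In that comparison 0.393% of all probes were called. Ppargc1a changed by -0.62 there with an adjusted p of 0.0700. Between the high-fat groups 0 genes of these lists were called, where 0% of all probes were; Irs2 was 0.70 ± 0.22 (SE) higher in HFepa (adjusted p = 0.267).

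**Figure D4:**
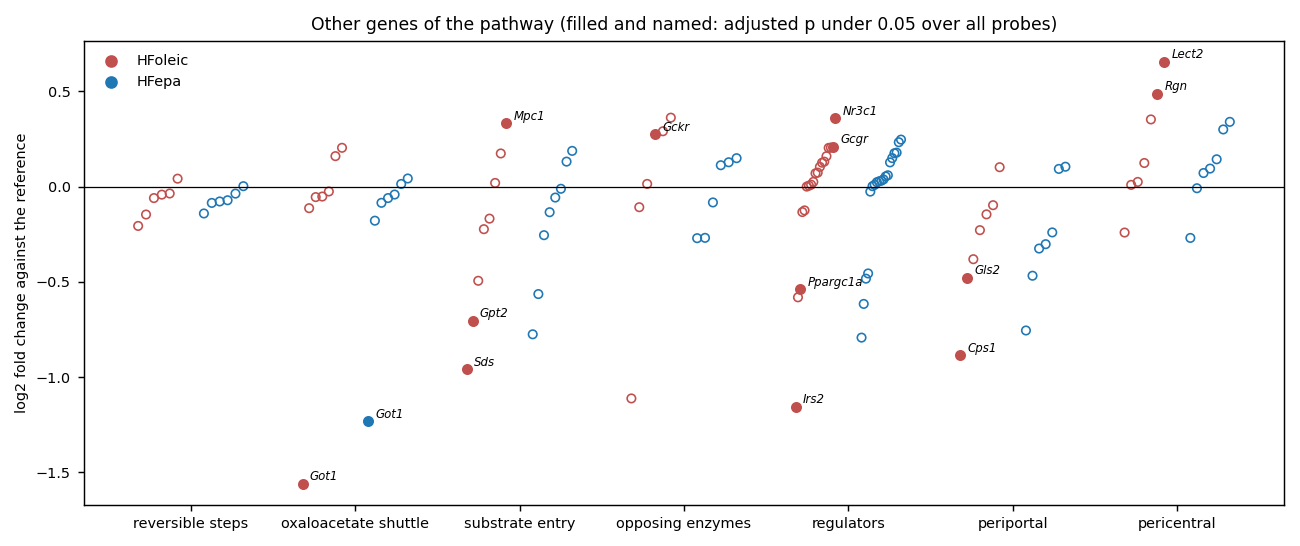
Log2 fold change against reference of each measured gene of 7 other pathway lists (horizontal axis), HFoleic in red and HFepa in blue, where filled and named points have an adjusted p below 0.05 over all tested probes. Got1 at -1.56 is the lowest HFoleic value, and Got1 at -1.23 is the filled HFepa point.

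Over all 24 mice, the genes whose signal followed Pck1 most closely, of 19040 genes ranked, were a transcript that the array lists by coordinates only (r = 0.93), Mfsd2a (r = 0.89), Irs2 (0.89), Kif21a (0.89) and Por (0.89). For G6pc they were Igfbp1 (0.83), Slc25a25 (0.83), Abtb2 (0.80), Rusc2 (0.79) and Ablim3 (0.78). These correlations are descriptions over mice that differ in group, and with the group means removed Irs2 with Pck1 gave 0.71 and Igfbp1 with G6pc 0.76.

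Within groups, few enzymes varied together. Of 36 pairs of the 9 genes, with group means removed and 100000 permutations within groups, 10 had an unadjusted p below 0.05 by Pearson and 2 passed Benjamini-Hochberg adjustment over the 36. Pck2 and Aqp9 ran opposite (Pearson r = -0.76, adjusted permutation p = 0.0241; Spearman rho = -0.54, adjusted permutation p = 0.153, 23 mice), and r was -0.46 without reference replicates 2 and 5. Pcx and Aqp9 ran together (r = 0.71, adjusted permutation p = 0.0376; rho = 0.55, adjusted permutation p = 0.153), and r was 0.50 without reference replicates 5 and 8. Taken group by group, r of Pcx with Aqp9 was 0.86 in reference, 0.69 in HFepa and -0.13 in HFoleic. For Pck2 with Aqp9 it was -0.85 in reference, -0.48 in HFepa and -0.49 in HFoleic. By Spearman 0 of 36 pairs passed. By Pearson, with single arrays left out, Pck2 with Aqp9 passed in 21 of 24 runs and Pcx with Aqp9 in 12 of 24, with r down to 0.57 and an adjusted permutation p of up to 0.293. Neither pair passed without reference replicate 2, 3 or 5, and Pcx with Aqp9 also did not without reference replicate 1, 4, 7, 8 or 9 or HFepa replicate 1, 3, 5 or 6. For Pck1 and G6pc, r was 0.39 (permutation p = 0.0761, adjusted 0.228; rho = 0.23, permutation p = 0.306, adjusted 0.538) and 0.04 without reference replicate 8 and HFoleic replicate 8. Within reference r was 0.88, within HFoleic -0.03 and within HFepa 0.24.

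**Figure D5:**
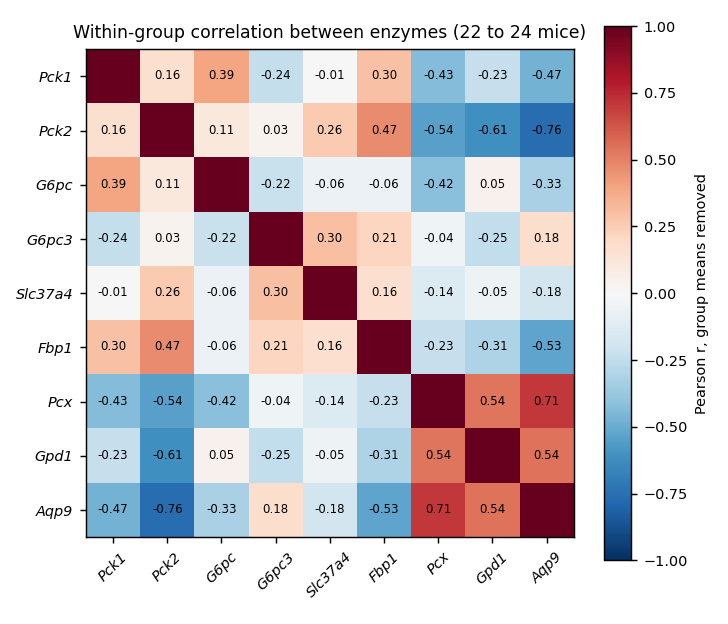
Pearson correlation between enzymes within groups (group means removed, 22 to 24 mice per pair); red is positive and blue negative. The strongest cells are Pck2 with Aqp9 at -0.76 and Pcx with Aqp9 at 0.71.

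Reference replicate 5, which weighs in both called pairs, also stood apart in markers of another cell type. The summed log2 signal of 4 measured bile duct markers (Krt7, Krt19, Spp1 and Sox9; Epcam was not well above background) was 13.40 in that mouse, the highest of 24, with the other 23 between 10.45 and 11.72. In the same mouse Pck2, Pck1 and Fbp1 were the highest of the reference group, and Gpd1, Aqp9 and Pcx the lowest. The part of bile duct RNA in these values was not tested. Between groups, 1 of the 4 bile duct markers was called lower in HFoleic than in reference and 0 higher. Their median change was -0.23, and 7.23% of all probes were called in that comparison. Without replicate 5, the HFoleic calls of Pck1, G6pc and Gyk in limma all held.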

How the data were processed

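Total RNA of 24 mouse livers had been labelled with Cy3 and hybridised to 1-colour Agilent arrays. For each array the authors deposited scanner output (Agilent Feature Extraction 10.10.1.1), in which spot signals are intensity values without normalization per the file headers. Its marks for outliers and for signal over background are scores of 0 or 1 per the file headers. A matrix of log2 signals that the authors had filtered and quantile normalized was deposited too, with 32176 probes, and served as an alternative.

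Here log2 median signals were averaged over the spots of a probe, leaving out flagged outliers (134 to 627 per array). A probe was kept if 75% or more of the arrays of any group showed it well above background (30003 of 56605) and quantile normalized. A group-means model was fitted with limma 3.58.1 (R 4.3.3, with the data.table package, version 1.17.8) to the 24 arrays together. Precision is limited by how many arrays there were. The brightest tested probe stands for a gene. Pairs of enzymes were tested by permutation within groups (numpy 2.4.6, scipy 1.17.1, pandas 2.3.3, Python 3.11.15), and figures used matplotlib 3.10.9. For HFoleic against reference, data were simulated for 30003 probes with independent noise, with 100 probes changed by 0.5 and 100 by 1 (log2). The fit recovered 73% of changes of 0.5 and 96% of changes of 1, with 8 false calls. In the real comparison 2170 probes were called and the noise of genes need not be independent, so these rates may not hold there.

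Probe coordinates are mm9, as in the files, and promoters GRCm38.p6, from RefSeq. Groups and replicate numbers came from the labels. The enzymes, lists and tests were chosen with earlier results of these data known. Named were all enzymes, at most 4 called genes per pathway list with some uncalled ones beside them, and the 5 genes most correlated with Pck1 and with G6pc. A few genes of the pathway and marker lists are not reported here and are in no count of them. Alternatives were other signals, background correction, scaling, filters, slide, slide row and replicate number as blocks, the methods' t-test, fewer groups, other probe averaging and leaving out each array.

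Summed signals of markers of cells other than hepatocytes, as a check, were 8.74 to 13.44 for adipocytes (4 of 5 markers measured), 12.31 to 13.28 for blood (3 of 4), 13.32 to 14.74 for Kupffer cells (5 of 5), 11.74 to 13.76 for exocrine pancreas (2 of 5) and 7.62 to 8.20 for kidney proximal tubule (3 of 5) on the log2 scale, with ranges that overlapped between groups. Adipoq, Ahsp, Cpa1, Pnlip, Prss2, Kap and Umod were not well above background.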

Additional observations from a re-analysis of the deposited data

Results flagged for a closer look

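Among 30 gene and group combinations (9 enzymes and Gyk in 3 groups), 3 had a mouse far from the rest of its group by Dixon's criterion, which chance meets in about 1 in 20. All 3 were reference mice. Pck1 in reference replicate 8 was 16.14, against 16.80 to 17.00 in the other 8 mice. Pck2 in reference replicate 5 was 9.82, with the next highest mouse at 8.72. Gpd1 in reference replicate 5 was 15.36, with the next lowest at 16.03. Replicate 8 also had the lowest G6pc of the reference group, at 14.52. Replicate 5 had the highest summed bile duct marker signal of all 24 mice, at 13.40, and its part in the Pck2 and Gpd1 values was not tested.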

How the results depend on the processing

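The number of enzymes called in HFoleic against reference was 2 under each of 12 processing alternatives and without each of 24 arrays, and the HFoleic changes of Pck1 (-0.81 to -0.72) and G6pc (-0.58 to -0.51) were called in all 12. The Gyk change was called in 11 of 12, and was -0.39 with an adjusted p of 0.0517 by the methods' t-test. In HFepa against reference, 1 enzyme, G6pc, was called in limma with the median signal scaled to the 75th percentile (-0.57, adjusted p = 0.0462), with probes required above background on every array of a group (-0.53, 0.0490) and with the replicate number as a block (-0.56, 0.0331). Leaving out single arrays gave 2 enzymes called in HFoleic each time, 0 to 2 in HFepa (1 without HFoleic replicate 3 or HFepa replicate 3, 2 without reference replicate 8) and 0 between the high-fat groups each time.

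Over all probes, HFepa against reference gave 118 calls in limma (57 higher, 61 lower), but 0 without a filter on dim probes (4845 at an unadjusted p below 0.05), 0 by the methods' t-test (3472 unadjusted) and 13 with only the 2 groups compared in the fit. With the processed signal the split was 39 higher and 78 lower, and with the median signal scaled to the 75th percentile 42 and 71. HFepa against HFoleic gave 2 calls with the strict filter, and 0 in limma as reported (2910 unadjusted). Leaving out single arrays gave 1602 to 3097 calls in HFoleic (3097 without reference replicate 8), 0 to 499 in HFepa and 0 to 15 between the high-fat groups. In HFepa the count moved by over 1.5 times without any of 11 arrays: 0 without HFepa replicate 2 or 6 (3376 and 3492 unadjusted), 3 without 1 or 7, 62 without 4 and 256 without 3, and 29, 32, 47, 78 and 499 without reference replicate 1, 2, 4, 7 and 8. Called enzyme pairs numbered 0 with normexp, 4 with 75th percentile scaling and 0 to 3 when single arrays were left out. The cause of these differences was not tested.

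Estimates near 0 that were not called changed sign, 17 under processing alternatives and 35 without single arrays, the largest 0.0860 in size. With the processed signal, Pcx was -0.0455 and Gpd1 -0.0849 in HFoleic, Pcx -0.0408 and Gpd1 -0.00164 in HFepa, and G6pc 0.0188 and Pcx 0.00472 between the high-fat groups. With the median signal scaled to the 75th percentile, Pcx was -0.0577 and Gpd1 -0.0860 in HFoleic, Pcx -0.0385 in HFepa, and G6pc 0.0133 and Pcx 0.0192 between the high-fat groups. Between the high-fat groups Pck2 was -0.0336 with normexp, G6pc 0.00371 with the slide row as a block, and Pck2 -0.0584, Fbp1 -0.00253 and Pcx 0.00817 with the replicate block. The mean of all Slc37a4 probes was 0.0453 in HFepa. Without single arrays, Pcx ran from -0.0225 to 0.0517 and Gpd1 from -0.0816 to 0.0610 in HFoleic, Pcx from -0.0308 to 0.0435 and Gpd1 from -0.00641 to 0.104 in HFepa, and, between the high-fat groups, Pck2 from -0.0625 to 0.0802, G6pc from -0.0609 to 0.0680, Slc37a4 from -0.0300 to 0.0841, Fbp1 from -0.0195 to 0.0338 and Pcx from -0.0303 to 0.0156.

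Replicate numbers showed no sign of pairing the mice. Arrays of the same number correlated at -0.18 to 0.10 (HFoleic and reference), -0.08 to 0.35 (HFepa and reference) and -0.30 to 0.05 (HFepa and HFoleic) in their deviations from the group means. Of these, 1 of 8, 1 of 7 and 0 of 7 correlated best with their own number. So few arrays cannot exclude pairing, and the paper states that high-fat mice of the lineages were matched on body weight. With the replicate number as a block, limma called 1747, 104 and 0 probes.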
